A study of Hordeum vulgare with 12 samples.

Results

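The regions described are the VRS5 peaks that lie on annotated pseudogenes of the barley genome. A peak was included if at least 1 of its bases fell within a gene that the RefSeq annotation of MorexV3 gives the biotype pseudogene, and none fell within a protein-coding gene. This applied to 548 of the 99518 peaks on chromosomes 1H to 7H, a share of 0.551% (95% Wilson interval 0.507 to 0.599). VRS5 from cv. Bowman, fused to FLAG, was the bait in 6 libraries, and GFP-FLAG, a fluorescent protein not known to bind DNA, was the control bait in 6 others. Both were incubated with fragmented genomic DNA of cv. Morex, extracted from 100 mg of developing inflorescences per replicate at 4 weeks after sowing and about Waddington stage 4. In this assay, DAP-seq, the DNA is purified and carries no chromatin, and the fragments held by the tagged protein are sequenced. The libraries of each bait were pooled before peaks were called, so every value below is one value per peak, without a replicate error, and no test between libraries could be made. The intervals given reflect counting error alone, as if each peak were independent of the others.

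VRS5 is the barley ortholog of maize TEOSINTE BRANCHED 1 and belongs to the TCP family of plant transcription factors, which bind short GC-rich sequences. TEOSINTE BRANCHED 1 and its orthologs in grasses restrain the outgrowth of axillary buds. A pseudogene is a stretch of DNA that resembles a gene but no longer encodes an intact protein. In large cereal genomes many pseudogenes are gene copies or fragments that have been broken up by insertions. Transposable elements inserted within a pseudogene can lengthen its annotated span considerably. DAP-seq measures which DNA a protein can bind in vitro, and says nothing on its own about whether a bound gene is expressed or regulated.

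Most of the peaks sat well within a pseudogene. The summit, the base with the highest read pileup, was inside the pseudogene for 527 of the 548 peaks (96.2%), 503 peaks (91.8%) lay wholly inside, and 23 had less than 50% of their length inside. None touched a second pseudogene. A further 5 peaks touched a pseudogene and a protein-coding gene and were not included. The peaks with the smallest overlap shared 3 bp with LOC123396645 on 5H, 12 bp with LOC123396328 on 5H and 13 bp with LOC123408924 on 7H, and were enriched 6.60-fold, 4.20-fold and 4.67-fold over GFP-FLAG. The nearest peaks that just missed a pseudogene lay 16, 21 and 40 bp away from LOC123450540, LOC123398597 and LOC123441012, with 4.12-fold, 3.18-fold and 3.94-fold enrichment. The pseudogenes carry only locus numbers in the annotation used, and the genes they resemble were not analysed here.

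Pseudogenes were touched by a VRS5 peak more often than protein-coding genes. A peak touched 348 of the 5423 pseudogenes (6.42%, 95% Wilson interval 5.80 to 7.101), against 719 of 30627 protein-coding genes (2.35%, 2.18 to 2.52). The difference was 4.07 percentage points (95% Newcombe interval 3.42 to 4.77). Among annotated long non-coding RNA genes, 45 of 3443 had a peak (1.31%, 0.978 to 1.74), and over annotated genes of every biotype the share was 2.24%. The 548 peaks themselves lay on 344 pseudogenes, 6.34% of all. The other 4 pseudogenes were touched only by peaks that also reached a protein-coding gene. Of 187 genes annotated as transcribed pseudogenes, a separate biotype that was not included, 2 had a peak (1.07%, 0.294 to 3.82).

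The pseudogenes with peaks were mostly long ones. The median length of all pseudogenes was 1.87 kb, with quartiles of 0.835 and 4.34 kb and a range of 73 bp to 189.6 kb. Pseudogenes of 8 kb or longer made up 15.5% of all (843 of 5423) and held 451 of the 548 peaks (82.3%, 78.9 to 85.3). The 82 pseudogenes of 64 kb or longer held 204 peaks (37.2%, 33.3 to 41.3). Below 1 kb, 19 of 1630 pseudogenes had a peak (1.17%), against 20 of 3559 protein-coding genes (0.562%). Between 8 and 16 kb the shares were 16.3% of pseudogenes and 6.76% of protein-coding genes, a difference of 9.57 percentage points (6.11 to 13.6). From 64 kb upwards, 70 of 82 pseudogenes (85.4%) and 34 of 54 protein-coding genes (63.0%) had a peak, a difference of 22.4 percentage points (7.57 to 37.1). The share was higher in pseudogenes in 7 of 8 length classes with an interval of the difference above 0. The exception was 16 to 32 kb, with 22.6% of pseudogenes and 21.6% of protein-coding genes, where the interval of the difference ran from -4.78 to 7.502 percentage points. Among the pseudogenes of 64 kb or longer, 12 had no peak, and the longest of these was LOC123409274 on 7H with 114 kb.

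**Figure D1:**
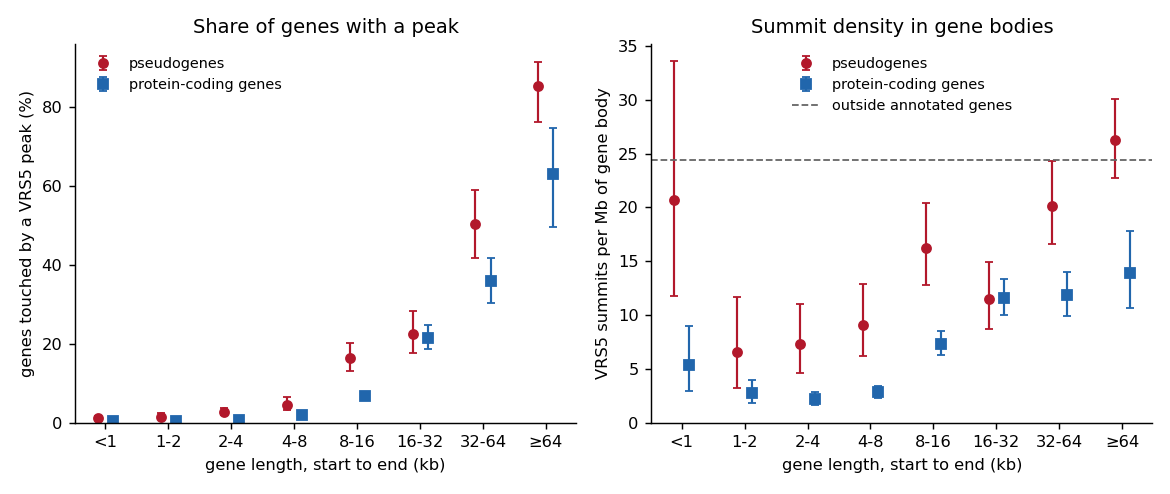
Share of genes touched by at least 1 VRS5 peak (left, in percent, with 95% Wilson intervals) and VRS5 summits per Mb of gene body (right, with 95% Poisson intervals), by gene length in kb, for pseudogenes (red circles) and protein-coding genes (blue squares). The dashed line is the density outside annotated genes, 24.4 per Mb. The share rose with length for both kinds of gene, to 85.4% of pseudogenes and 63.0% of protein-coding genes of 64 kb or longer, and the 2 densities met at 16 to 32 kb.

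Density removes the direct effect of length on the chance of holding a peak. Pseudogene bodies, from start to end, held 527 summits in 31.8 Mb, or 16.6 per Mb (95% Poisson interval 15.2 to 18.04). Protein-coding bodies held 782 summits in 136 Mb, or 5.75 per Mb (5.35 to 6.17), so that the density in pseudogenes was 2.88 times as high (95% exact conditional interval 2.57 to 3.22). Bodies of long non-coding RNA genes held 4.63 per Mb (3.29 to 6.33). Sequence outside all annotated genes held 24.4 per Mb (24.3 to 24.6), and relative to it pseudogene bodies were at 0.678 (0.621 to 0.739). The density of VRS5 summits in pseudogenes thus lay between that of protein-coding genes and that of intergenic sequence. Regions with many GFP-FLAG reads, the greenscreen regions from which the authors removed all peaks, took up 5.49% of pseudogene bodies, 10.3% of protein-coding bodies and 6.36% of the sequence outside genes. With this length taken out, the ratio of pseudogene to protein-coding bodies was 2.74 (2.44 to 3.06).

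Short and long pseudogenes differed in density. Pseudogenes under 8 kb held 8.99 summits per Mb (7.14 to 11.2) and those of 8 kb or longer 19.5 per Mb (17.8 to 21.4). Protein-coding genes held 2.69 and 9.97 per Mb in the same 2 classes, which put pseudogenes 3.34 times (2.55 to 4.33) and 1.96 times (1.73 to 2.22) as high. The highest density was in pseudogenes of 64 kb or longer, with 26.2 per Mb (22.8 to 30.1), against 13.9 per Mb (10.7 to 17.8) in protein-coding genes of that length. Their interval included the density outside genes. Between 16 and 32 kb, pseudogenes held 11.5 per Mb and protein-coding genes 11.6 per Mb, a ratio of 0.995 (0.729 to 1.34). Pseudogenes under 1 kb held 16 summits in 0.774 Mb, which gives 20.7 per Mb with a wide interval (11.8 to 33.6).

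The 15 kb on both sides of each pseudogene, with all gene bodies taken out, held 17.5 summits per Mb (16.8 to 18.3). The ratio of pseudogene bodies to these flanks was 0.946 (0.858 to 1.04), an interval that includes 1. For protein-coding genes the same ratio was 0.329 (0.306 to 0.354). The value for pseudogenes joined unlike length classes. As a group, pseudogenes under 8 kb were at 0.526 of the flank (0.416 to 0.658) and those of 8 kb or longer at 1.03 (0.897 to 1.17), but neither group was uniform. Under 1 kb the ratio was 1.23 (0.701 to 2.02), while the 3 classes between 1 and 8 kb lay between 0.402 and 0.546 with intervals below 1. Among the longer pseudogenes it was 1.06 (0.797 to 1.41) at 8 to 16 kb, 0.566 (0.408 to 0.777) at 16 to 32 kb, 0.753 (0.566 to 1.004) at 32 to 64 kb and 1.26 (0.917 to 1.78) from 64 kb upwards. The class of 16 to 32 kb was thus the one above 8 kb with a density resolved below that of its flanks. With flanks of 5 kb in place of 15 kb the ratio over all pseudogenes was 1.14 (1.01 to 1.28). Outside the pseudogenes the density was 11.6 per Mb in the first 1 kb and 20.3 per Mb (18.9 to 21.8) at 10 to 15 kb.

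Right at the ends of long pseudogenes no dip was resolved, but the counts there were small. In pseudogenes of 8 kb or longer the first 0.5 kb inside the end held 13 summits, or 15.5 per Mb (8.24 to 26.5), and the first 1 kb outside held 17.5 per Mb (11.6 to 25.3). Protein-coding genes of 8 kb or longer held 2.99 per Mb (1.43 to 5.50) in the first 0.5 kb inside and 7.38 per Mb (5.40 to 9.84) in the first 1 kb outside. Farther inside, the long pseudogenes held 14.3 per Mb (11.2 to 18.1) at 2 to 5 kb from the end. Over 20 kb from either end, pseudogenes held 25.4 per Mb (21.2 to 30.1), against 11.7 per Mb (8.53 to 15.8) in protein-coding genes. The interval at 2 to 5 kb lay below that over 20 kb. Only the longer genes have bases so far from both ends, so position and gene length are mixed in this comparison. Over pseudogenes of any length, the density was lowest 0.5 to 1 kb inside the end, at 8.74 per Mb (5.76 to 12.7), and 11.6 per Mb (9.52 to 14.0) in the first 1 kb outside. The start and the end of a gene were not told apart, as strand was not used here.

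**Figure D2:**
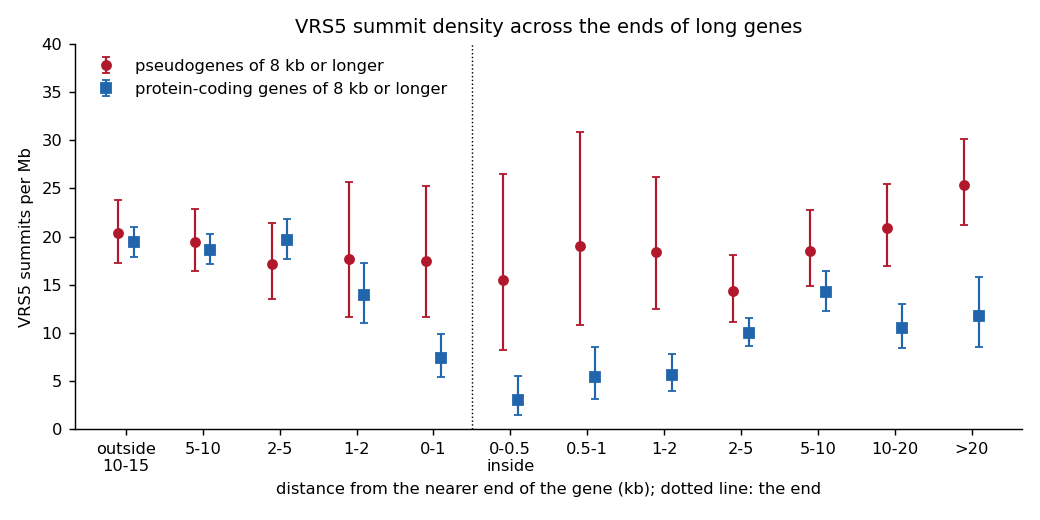
VRS5 summits per Mb by distance in kb from the nearer end of the gene, outside (left of the dotted line) and inside (right of it), for pseudogenes (red circles) and protein-coding genes (blue squares) of 8 kb or longer, with 95% Poisson intervals. Just inside the end, pseudogenes held 15.5 per Mb and protein-coding genes 2.99 per Mb. Classes farther inside come from the longer genes only.

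The peaks on pseudogenes lay closer to protein-coding genes than VRS5 peaks in general. The median distance of a summit to the nearest protein-coding gene was 62.2 kb (95% order-statistic interval 53.8 to 70.9), against 80.1 kb over all peaks (79.4 to 80.8). Within 15 kb of a protein-coding gene were 112 of the 548 summits (20.4%, 17.3 to 24.0), against 11.8% of all summits. Pseudogenes crowd towards the chromosome ends: the outer 20% at each end of the chromosomes held 63.1% of pseudogenes, 56.0% of the peaks on them (51.8 to 60.1) and 35.8% of all peaks. Protein-coding genes did so as well, with 82.1 of the 136 Mb of their bodies there, against 19.3 of 31.8 Mb for pseudogene bodies. In these outer zones pseudogene bodies held 15.4 summits per Mb and in the middle 60% 18.3 per Mb. Relative to the sequence outside genes of the same zone, this was 0.693 (0.616 to 0.777) in the outer zones and 0.710 (0.621 to 0.808) in the middle.

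Compared at equal distance from protein-coding genes, pseudogene bodies of all lengths together still held fewer summits than sequence outside genes from 5 kb onwards. Between 15 and 50 kb they held 13.6 per Mb, against 24.2 per Mb outside genes, a ratio of 0.562 (0.466 to 0.673). Beyond 100 kb the densities were 20.7 per Mb in pseudogenes and 26.1 per Mb outside genes, a ratio of 0.793 (0.682 to 0.918). The intervals included 1 under 1 kb, where pseudogenes held 4 summits, and between 1 and 5 kb, with a ratio of 0.728 (0.5003 to 1.02). Pseudogenes under 8 kb had the lower values, with a ratio of 0.218 (0.104 to 0.401) between 15 and 50 kb and 0.380 (0.225 to 0.600) beyond 100 kb. For those of 8 kb or longer the ratio was 0.657 (0.539 to 0.792) between 15 and 50 kb, and this was the one distance class in which their density was resolved below that outside genes. Their intervals included 1 between 5 and 15 kb, with a ratio of 0.773 (0.568 to 1.03), between 50 and 100 kb, with 0.846 (0.695 to 1.02), and beyond 100 kb, with 0.900 (0.768 to 1.05), as they did under 5 kb.

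**Figure D3:**
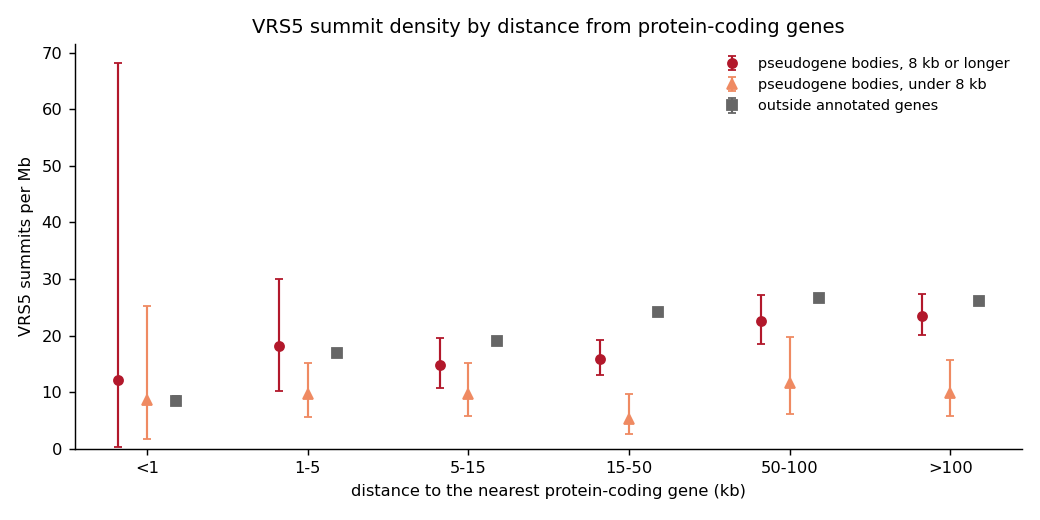
VRS5 summits per Mb by distance in kb to the nearest protein-coding gene, for bodies of pseudogenes of 8 kb or longer (red circles), of pseudogenes under 8 kb (orange triangles) and sequence outside annotated genes (grey squares), with 95% Poisson intervals. Short pseudogenes stayed at or below 11.6 per Mb at every distance, while the sequence outside genes reached 26.6 per Mb.

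Differences between the 7 chromosomes were not tested. The number of peaks on pseudogenes ranged between 65 on 4H and 92 on 5H. The lowest density was 13.0 summits per Mb of pseudogene on 2H (10.2 to 16.4) and the highest 18.8 on 5H (15.1 to 23.2). These intervals overlapped, which does not decide whether the densities differ, and they belong to the extremes of the 7.

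In fold enrichment the peaks on pseudogenes were not set apart from VRS5 peaks in general. Their median fold enrichment, taken over the GFP-FLAG background nearby, was 4.36 (4.27 to 4.46), with quartiles of 3.86 and 5.14 and a range of 2.74 to 11.9. The median was 4.14 (4.07 to 4.22) for the 844 peaks that touched a protein-coding gene and 4.38 (4.37 to 4.39) for all peaks. The share above the median of all peaks was 49.3% on pseudogenes (45.1 to 53.4) and 38.0% on protein-coding genes (34.8 to 41.4). Of the 548 peaks, 168 had a q below 1e-20 (30.7%, 26.9 to 34.6), against 31.9% of all peaks. For a q below 1e-50 the count was 7 (1.28%, 0.620 to 2.61), against 1.73% of all peaks. Over 10-fold enrichment was found for 3 (0.547%, 0.186 to 1.60), against 0.452% of all peaks. The median width was 274 bp on pseudogenes, 308.5 bp on protein-coding genes and 273 bp over all peaks.

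The peaks on pseudogenes had a slightly lower median height. The median pileup of VRS5-FLAG reads at the summit was 52 on pseudogenes (52 to 53), 55 on protein-coding genes and 54 over all peaks. The share above the median pileup of all peaks was 43.6% on pseudogenes (39.5 to 47.8), an interval that includes the 47.5% of all peaks. The local GFP-FLAG background, computed back from pileup and fold enrichment, had a median of 10.9 (10.4 to 11.1) on pseudogenes, 12.4 (11.95 to 12.53) on protein-coding genes and 10.9 over all peaks. As fold enrichment is a ratio to this background, the peaks were also compared within 5 classes of similar background. In the lowest class the median fold enrichment was 5.11 on pseudogenes (4.78 to 5.44), 4.67 on protein-coding genes (4.49 to 4.96) and 5.08 over all peaks. In the highest class the medians were 3.79 on pseudogenes (3.67 to 3.99), 3.67 on protein-coding genes (3.47 to 3.75) and 3.69 over all peaks. In each of the 5 classes the interval for pseudogenes included the median of all peaks.

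**Figure D4:**
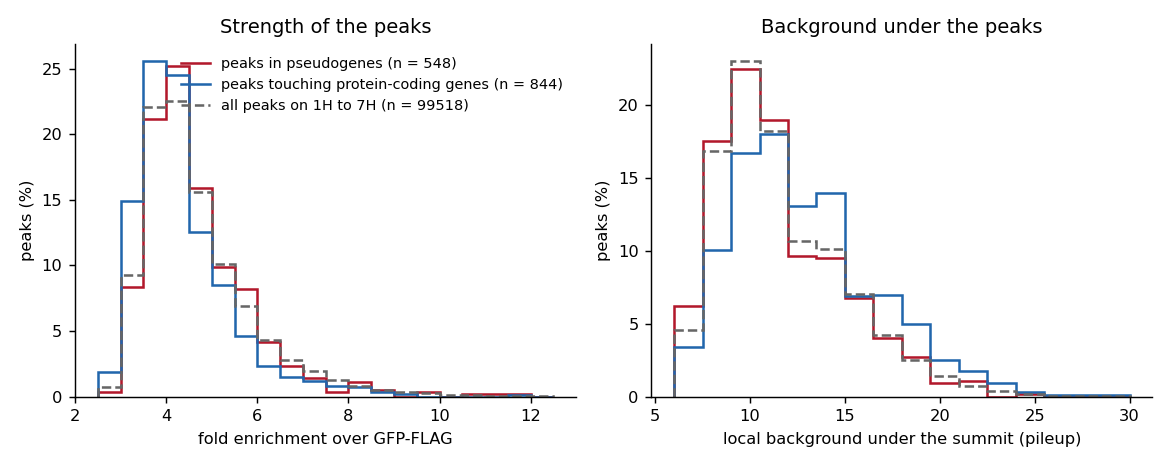
Distribution of fold enrichment over GFP-FLAG (left) and of the local background under the summit in pileup units (right), as the percentage of peaks per class, for peaks on pseudogenes (red), peaks touching protein-coding genes (blue) and all peaks on 1H to 7H (grey, dashed). The last class of each panel also holds all higher values, up to 19.2-fold and a background of 37.4 over all peaks. The red line follows the grey one, with medians of 4.36 and 4.38 for fold enrichment, and the blue line lies at lower fold enrichment and higher background.

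Fold enrichment differed with the length of the pseudogene, and so did the background. In pseudogenes under 2 kb the 37 peaks had a median of 4.01-fold (3.69 to 4.25), a background of 13.3 (11.0 to 14.8) and a width of 350 bp, and 29.7% of them (17.5 to 45.8) exceeded the median of all peaks. In pseudogenes of 64 kb or longer the 204 peaks had a median of 4.50-fold (4.37 to 4.67), a background of 10.3 (9.87 to 10.7) and a width of 257 bp, and 55.9% (49.0 to 62.5) exceeded it. The part of the background in this difference was not tested.

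The strongest peak on a pseudogene lay on 2H from 225466808 to 225467074, within LOC123426199, a pseudogene of 6.71 kb. It had a pileup of 93 over a background of 6.91, which gives 11.9-fold enrichment with a -log10 q of 65.1, with the nearest protein-coding gene 474 kb from the summit. Only 0.0874% of all VRS5 peaks were enriched more. The second lay on 4H from 418884653 to 418885048 in LOC123450572, a pseudogene of 80.8 kb, with 11.1-fold enrichment. The third, on 1H from 379911545 to 379912021 in LOC123399403, was enriched 10.6-fold. They were followed by peaks in LOC123441640 on 3H and LOC123396413 on 5H, both at 9.62-fold, and LOC123450330 on 4H at 8.98-fold. The background of 6.91 under the strongest peak is the lowest possible value, a floor set with the genome size, shared by 20 of the 548 peaks. A floor of 8.89, for the assembled length, would raise the background of the 3 strongest peaks. It would not raise that of the 9.62-fold peak in LOC123441640, which is 9.08. The order of the strongest peaks and the count above 10-fold thus depend on this floor.

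The 15 strongest peaks, between 7.79-fold and 11.9-fold, lay on 12 pseudogenes. Of these peaks, 14 were in pseudogenes of 8 kb or longer, where 82.3% of all 548 peaks lay. All 15 summits were over 15 kb from any protein-coding gene, and the closest, in LOC123424843 on 2H, was 15.1 kb away. Few peaks lie nearer in general: 20.4% of the 548 summits and 11.8% of all VRS5 summits were within 15 kb. The remaining pseudogenes of this group were LOC123398239 on 1H, LOC123427850 on 2H, LOC123441487 on 3H, LOC123396549 on 5H and LOC123408805 on 7H.

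Of the 344 pseudogenes with peaks, 240 had 1 peak and 104 had 2 or more, and the 104 held 308 of the 548 peaks (56.2%, 52.0 to 60.3). There were 54 pseudogenes with 3 or more peaks, of 23.3 to 189.6 kb, and together they held 208 peaks. The 13 with 5 or more peaks were all between 65.5 and 181 kb long. LOC123428975, on 2H from 662701483 to 662798253 (96.8 kb), held 7 peaks, which in order along the chromosome were enriched 3.36-fold, 4.38-fold, 6.20-fold, 5.61-fold, 3.78-fold, 4.08-fold and 3.67-fold. LOC123396364, on 5H from 95893329 to 95992915 (99.6 kb), also held 7, at 4.28-fold, 5.82-fold, 4.60-fold, 3.86-fold, 5.69-fold, 4.57-fold and 4.65-fold. In LOC123428975 the strongest 2 peaks were neighbours with weaker ones on both sides, and in LOC123396364 the strongest 2 were separated by weaker ones.

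LOC123405012, on 6H from 35015439 to 35196156 (181 kb), held 6 peaks of 3.46-fold to 6.44-fold enrichment. The longest pseudogene with a peak, LOC123396386 on 5H (189.6 kb), held 4 peaks, enriched 6.68-fold, 4.65-fold, 3.19-fold and 5.08-fold. Among the 13 pseudogenes with 5 or more peaks, the density ranged between 31.2 per Mb in LOC123428660 on 2H and 76.3 per Mb in LOC123409028 on 7H. These 13 were picked for their number of peaks, so a density above the average is part of the choice. The 5 peaks of LOC123409028 were all weak, between 3.49-fold and 3.89-fold, while LOC123396265 on 5H held a peak of 7.62-fold among its 5.

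**Figure D5:**
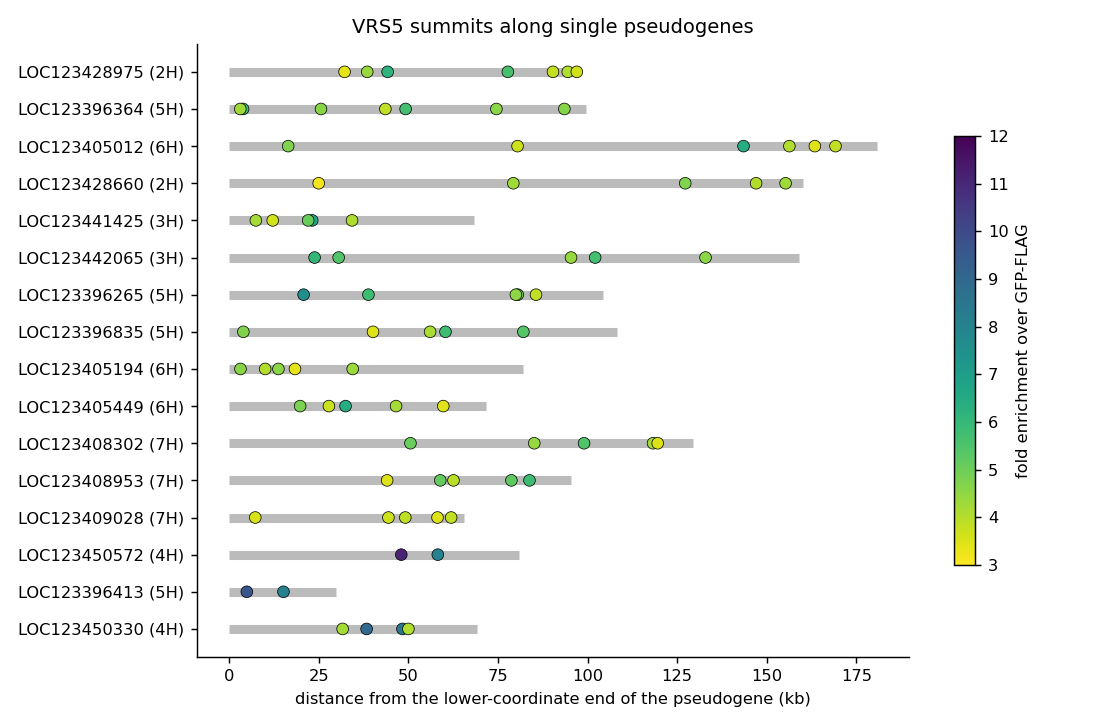
Position of VRS5 summits (circles, coloured by fold enrichment over GFP-FLAG) along single pseudogenes (grey bars), as distance in kb from the lower-coordinate end, with the chromosome in parentheses. The upper 13 rows are the pseudogenes with 5 or more peaks and the lower 3 are those with 2 peaks above 8-fold about 10 kb apart.

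Some of the strongest peaks came in pairs about 10 kb apart. In LOC123450572 the peak of 11.1-fold was followed, 10194 bp higher in coordinate, by one of 8.02-fold, on 4H from 418894934 to 418895240. In LOC123396413 the peaks of 9.62-fold and 8.0003-fold were 10222 bp apart, and in LOC123450330 those of 8.98-fold and 8.41-fold were 10002 bp apart. In all, 7 of the 15 strongest peaks had another peak 9900 to 10249 bp away in the same pseudogene. Both peaks of each pair named above are in this count, so the 7 are not independent and no interval is given. The share in all peaks as strong as these 15 was not computed. Over peaks of any strength, a partner at this distance was found for 4.38% of the 548 peaks and 4.69% of all peaks. The distance class was taken from earlier results on the whole peak list. Pairs of this kind were also found in the peak list as a whole. In the 10% of all peaks with the highest fold enrichment, above 6.30-fold, such a partner was found for 8 of the 47 peaks on pseudogenes (17.02%, 8.89 to 30.14), against 14.7% of all peaks of that strength. Among the weaker peaks it was found for 3.19% of the peaks on pseudogenes (1.98 to 5.12), against 3.58% of all peaks.

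Within single pseudogenes there were 375 pairs of summits, of which 181 were 1 to 20 kb apart. Of these, 10 were 9900 to 10249 bp apart (5.52%, 3.03 to 9.87), against 4.14% of all pairs of VRS5 summits at 1 to 20 kb. A pair under 1 kb apart was found 7 times, the closest in LOC123395163 on 5H with 415 bp between summits. To the nearest other peak of any kind, the median distance was 15.02 kb (13.3 to 17.6) for peaks on pseudogenes and 11.1 kb (11.0 to 11.3) for all peaks.

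Short pseudogenes held few of the peaks. The 19 peaks on pseudogenes under 1 kb lay on 19 pseudogenes of 493 to 969 bp, on 6 chromosomes. Of them, 6 were on 7H and none on 2H, where 91 and 75 of the 548 peaks lay. Their fold enrichment was 3.18 to 6.93 with a median of 3.79. Within 15 kb of a protein-coding gene were 11 of the 19 summits, against 20.4% of the 548. How often pseudogenes under 1 kb lie so close to a protein-coding gene was not counted. The median width of the 19 peaks was 311 bp, which leaves little room in spans this short, and in 10 cases the peak reached past the pseudogene. The shortest pseudogene with a peak, LOC123396619 on 1H from 62097196 to 62097688 (493 bp), held the whole of a peak of 264 bp with 6.39-fold enrichment, a pileup of 65 and a background of 9.33.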

How the data were processed

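The authors trimmed reads with Trimmomatic 0.39, mapped them to MorexV3 with BWA 0.7.17, called peaks with MACS2 2.2.7.1 (genome size 5.4e9) on pooled VRS5-FLAG against pooled GFP-FLAG libraries, removed peaks on greenscreen regions with bedtools and kept a q below 1e-10. Versions are from the submitters' processing notes. The deposited signal is the pileup at the summit. The deposited fold enrichment is a ratio of pileup to local background, each with 1 added. The authors deposited p and q values as −log10; the p values were not used. The deposited greenscreen score derives from a -log10 q and was not used beyond the regions' positions. How reads that map to several places were treated is not given in the sources used here.

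Peaks were intersected with RefSeq MorexV3 gene spans (1 bp minimum). Densities counted summits over merged spans. Intervals are 95% Wilson, Newcombe, exact Poisson, exact conditional or order-statistic intervals. Counting was tested on simulated peaks. Members and lists were chosen with earlier results of these data known. Pseudogenes were named by rule: those under the 15 strongest peaks, those with 3 or more peaks (examples are given), the longest and the shortest. Pseudogenes at the edge of the overlap rule, of the closest pair and the longest without a peak were named after their values were seen. Alternatives varied the overlap, q threshold, flank, greenscreen margin, gene neighbourhood, pseudogene length and background floor. Sequence, strand, exons, gene descriptions and depth per library were not analysed here. Scripts ran in Python 3.11.15 with scipy 1.17.1, pandas 2.3.3, matplotlib 3.10.9 and numpy 2.4.6.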

Additional observations from a re-analysis of the deposited data

How the results depend on the processing

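No paired analysis was possible because both deposited lists come from pooled libraries and hold no value per replicate; for the same reason no library could be left out. The number of peaks on pseudogenes stayed between 525 and 553 under 6 alternatives and was 168 at a q below 1e-20 and 7 at a q below 1e-50. The share of pseudogenes with a peak was 2.54% at a q below 1e-20, 7.42% among pseudogenes of 500 bp or longer, and, in alternatives chosen after seeing the data, 2.10% without those of 8 kb or longer and 5.21% without those of 64 kb or longer. The ratio of summit density in pseudogene bodies to protein-coding bodies stayed between 2.74 and 3.33 in 3 alternatives and, chosen after seeing the data, was 2.46 without genes of 64 kb or longer and 3.34 without those of 8 kb or longer. The ratio of pseudogene bodies to their flanks was not stable: it was 1.14 with flanks of 5 kb and 1.002 at a q below 1e-20, and, chosen after seeing the data, 0.771 without pseudogenes of 64 kb or longer and 0.526 without those of 8 kb or longer. The median fold enrichment was 5.70 at a q below 1e-20 (all peaks 5.72), 4.26 with the lowest background set for the assembled length (all peaks 4.29) and 4.25 without pseudogenes of 64 kb or longer. The alternatives on the motif were not run, as no genome sequence was used here.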
